A study of Saccharomyces cerevisiae with 18 samples.

Results

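The genes described here are those of ergosterol biosynthesis and sterol ester formation in *Saccharomyces cerevisiae*. They were chosen by name, as probe sets whose single gene symbol in the array annotation belongs to a list of 30 sterol genes, and the probe set with the highest mean stands for each gene. All 30 genes were measured, among 5656 genes with a probe set of their own. By role they comprise 9 genes of the mevalonate steps from acetyl-CoA to farnesyl diphosphate and 3 genes from there through squalene to lanosterol. A further 11 genes lead from lanosterol to ergosterol. The remaining 7 are 2 electron donors, 2 transcriptional regulators and 3 genes of sterol esterification and sterol transfer.

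The study hybridised RNA to 18 Affymetrix YG-S98 arrays, with 6 groups of 3 biological replicates. Every culture was the haploid strain DBY747 (MATa, with ura3Δ52, trp1Δ289a, leu2Δ112 and his3Δ1 alleles, and listed as gals, Can1 and CUPr), grown in the rich glucose medium YPD to mid-log phase. In 3 groups cells were exposed for 15 min to an enediyne, an antibiotic that cleaves deoxyribose in DNA: calicheamicin at 1 nM, esperamicin A1 at 3 nM or neocarzinostatin at 4 nM. The group treated with methanol, the solvent of the enediyne stocks, is their control, and γ-radiation at 210 Gy has a mock-irradiated control. Of 6 a-cell markers looked up for the mating type, MFA1 and MFA2 lay between 695 and 1819 on all arrays, STE2, BAR1 and AGA2 between 34.3 and 132, and STE6 between 5.59 and 17.9. The 4 α-cell markers MF(ALPHA)1, MF(ALPHA)2, STE3 and SAG1 lay between 7.67 and 61.7, and since probe sets of different genes have no common scale these values do not settle the mating type. Values are intensities on a linear scale, and median intensity per array lay between 15.3 and 16.8. The 5′ minus 3′ difference of the actin probe sets, a sign of RNA integrity, was -3.59 on the log2 scale on methanol replicate 1. It was -2.34 to -1.53 on the 3 esperamicin A1 arrays, below all of the remaining arrays, which lay between -1.34 and -0.69.

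Ergosterol is the main sterol of fungal membranes. Its synthesis starts with the mevalonate pathway, passes through squalene and lanosterol, and needs oxygen and heme at several steps from squalene on. The zinc cluster regulators Upc2 and Ecm22 bind sterol regulatory elements in ERG gene promoters. Upc2 also drives genes of sterol uptake that are used when oxygen is absent. Surplus sterol is stored as esters made by the acyltransferases Are1 and Are2.

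Not 1 of the 30 genes was called for γ-radiation, beside 0.902% of all genes. None was called for any of the enediynes or between enediynes, where 0% of all genes were called. Between the controls, ECM22 and ARE2 were called lower and ERG5 higher in methanol, which is 3 of 30 beside 8.68% of all genes, and 0 of 30 were called with the control arrays fitted alone. These genes also differed between replicate numbers. In both mock-irradiated and γ-irradiated cells most genes from lanosterol to ergosterol were highest in replicate 3 and lowest in replicate 2. The map of log2 deviations for 30 genes on 18 arrays shows these patterns side by side.

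**Figure D1:**
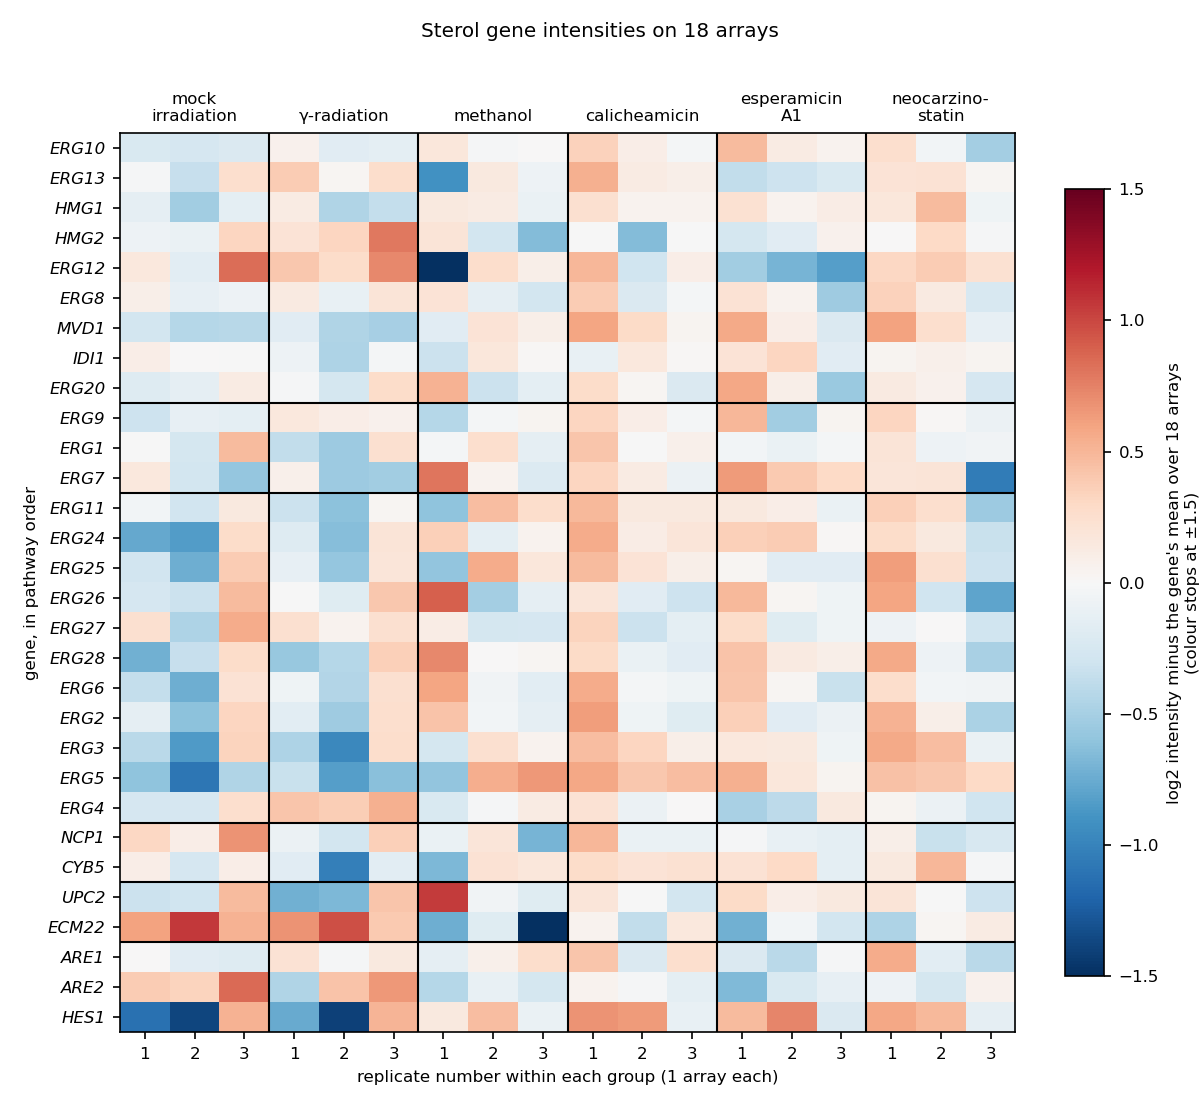
Log2 intensity of the 30 sterol genes (vertical axis, in pathway order, with black lines between roles) minus each gene's mean over 18 arrays, for replicates 1, 2 and 3 of each group (horizontal axis). Red marks above and blue below the gene's mean. Replicate 3 of mock irradiation and γ-radiation is red and replicate 2 blue for most genes from ERG11 to ERG3, and ECM22 is red on the 6 arrays of those groups.

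The first comparison asked which sterol genes responded to γ-radiation. Genes were called where limma's model of all arrays gave a change of at least 1.5-fold and an adjusted p (Benjamini-Hochberg, over all 5656 genes) of at most 0.10. γ-Radiation called 0 of the 30 genes, beside 51 genes or 0.902% of all genes tested. At an unadjusted p under 0.05 there was 1 sterol gene, against 8.70% of all genes. The median log2 fold change of the 30 was 0.06 (range -0.43 to 0.52), and that of all genes was -0.04. For 29 of the 30 genes the 95% interval excluded a 2-fold change in either direction, beside 91.9% of all genes. A 1.5-fold change was excluded for 6 of the 30, a smaller share than the 47.2% of all genes.

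ERG4, which encodes the sterol reductase of the last step, stood nearest to the threshold. Its intensity was 383, 381 and 541 in mock-irradiated replicates 1 to 3 and 606, 585 and 658 in γ-irradiated ones. All γ-irradiated values were thus above all mock values, although the highest mock array came close to the lowest irradiated one. The log2 fold change was 0.52 (SE 0.18, 95% interval 0.13 to 0.91; limma, adjusted p = 0.386), which did not pass. HMG2, 1 of the 2 HMG-CoA reductases that set the rate of the mevalonate pathway, measured 230, 227 and 304 in mock-irradiated and 279, 304 and 420 in γ-irradiated cells. These groups overlapped at 304 although the γ-irradiated array was higher in each pair of one replicate number. The log2 fold change of 0.39 had an adjusted p of 0.693 in limma, and of 0.448 with the replicate number as a block. Besides ERG4, the γ-irradiated arrays were all above mock for ERG10 and ERG9 (3 of 30, against 6.17% of all genes) and all below for IDI1 (1 of 30, against 8.57%). Within pairs of one number, 8 of the 30 genes were higher in all 3 pairs, against 17.2% of all genes, and 7 were lower, against 26.8%. The 7 were IDI1, ERG1, ERG11, ERG3, NCP1, CYB5 and UPC2, and none was called with the block.

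**Figure D2:**
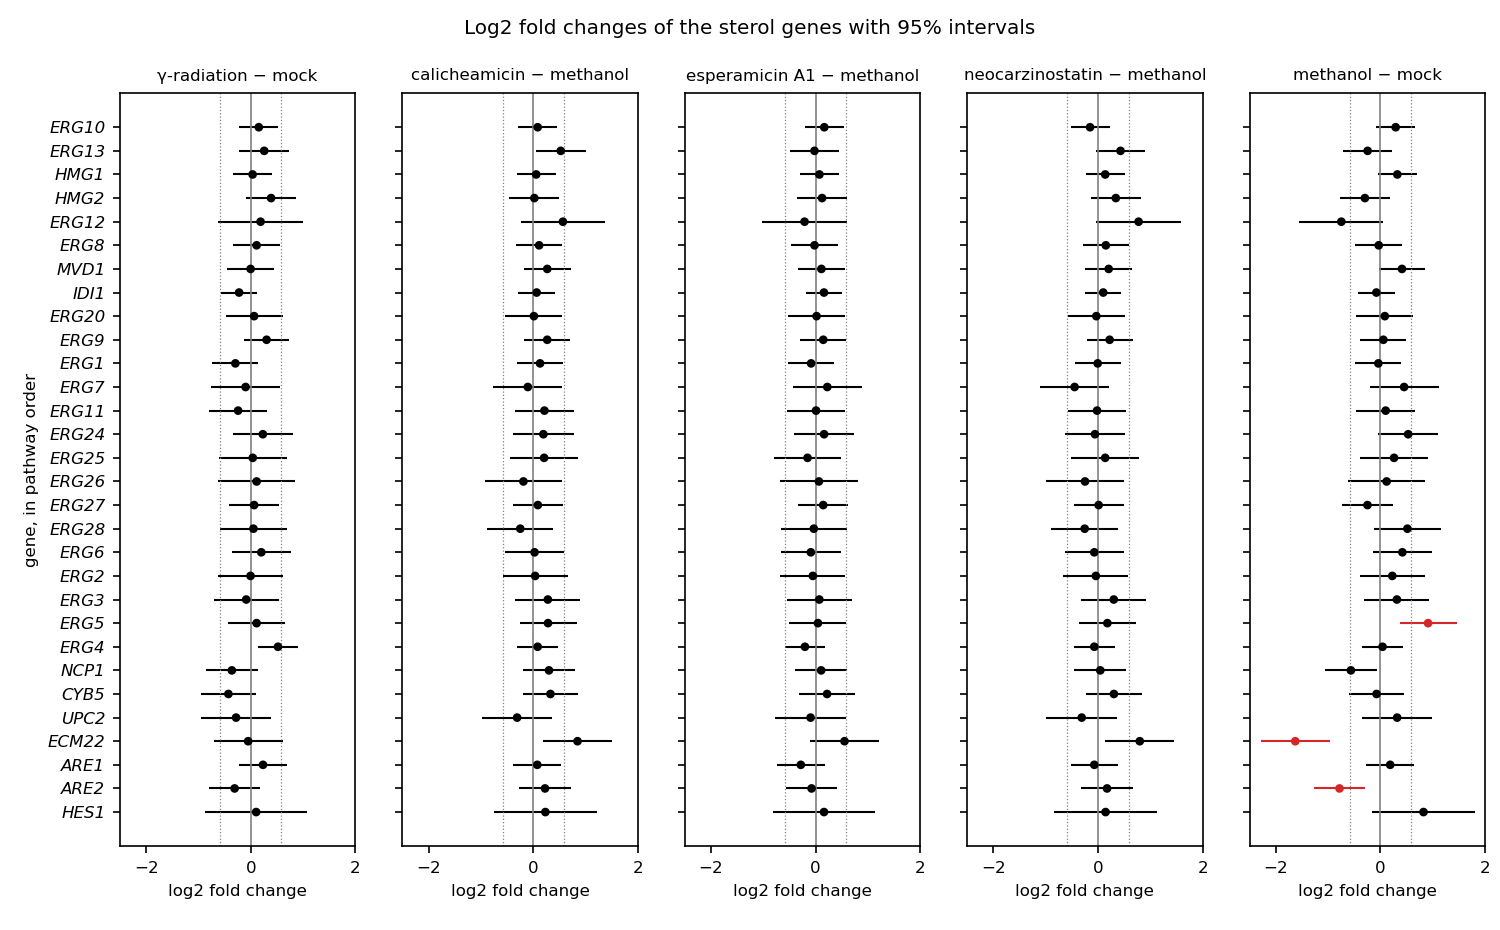
Log2 fold changes (horizontal axis) of the 30 sterol genes (vertical axis, in pathway order) in 5 comparisons, as limma estimates with 95% intervals from 3 arrays a group, with dotted lines at a 1.5-fold change. Genes called are red: ERG5 at 0.91, ECM22 at -1.63 and ARE2 at -0.78, each in methanol against mock irradiation.

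The same question was asked of each enediyne against methanol. Calicheamicin, esperamicin A1 and neocarzinostatin each called 0 of the 30 sterol genes, and 0% of all genes tested were called in each. Unadjusted p was under 0.05 for 2, 0 and 1 sterol genes respectively, beside 3.89%, 3.66% and 8.20% of all genes. A local pooled error test, rebuilt here from its description and run without a filter on Absent/Present calls, called 0 of the 30 for each enediyne and for γ-radiation, and 4, 5, 8 and 35 of all genes. Median log2 fold changes of the 30 genes were 0.12, 0.05 and 0.07, and those of all genes were 0.05, 0.04 and 0.04. A 2-fold change was excluded by the 95% interval for 26, 27 and 26 of the 30 genes, beside 91.9%, 94.4% and 91.4% of all genes. A 1.5-fold change was excluded for 10, 11 and 10 of the 30, smaller shares than the 51.7%, 54.2% and 47.3% of all genes. No sterol gene had all arrays of an enediyne above or all below those of methanol. Among all genes 5.91% were so above and 3.38% below for calicheamicin, 4.83% and 2.25% for esperamicin A1, and 7.39% and 4.07% for neocarzinostatin.

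ECM22, the paralog of UPC2, gave the largest estimate with all of the enediynes. It measured 12.4, 18.1 and 5.96 in methanol and 21.4, 15.9 and 23.0 with calicheamicin. With esperamicin A1 it measured 12.5, 19.9 and 16.99, and with neocarzinostatin 14.9, 21.1 and 22.5. Every treated group overlapped with methanol, in which replicate 3 was lowest. The log2 fold changes were 0.85 (SE 0.31, adjusted p = 0.923) for calicheamicin, 0.55 (adjusted p = 0.999) for esperamicin A1 and 0.80 (adjusted p = 0.571) for neocarzinostatin, none of which passed in limma. Without methanol replicate 3 they lay at 0.40, 0.11 and 0.36.

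ERG13, the HMG-CoA synthase, and ERG12, the mevalonate kinase, came next. ERG13 was at 130, 269 and 230 in methanol and at 352, 264 and 259 with calicheamicin, and ERG12 was at 13.2, 53.9 and 47.5 in methanol and at 55.8, 58.3 and 52.4 with neocarzinostatin. In both genes methanol replicate 1, the array with the lowest actin difference, was far below the other methanol arrays, and the groups overlapped. The log2 fold changes were 0.53 (adjusted p = 0.923) and 0.78 (adjusted p = 0.612) in limma. Without methanol replicate 1 they were 0.21 and 0.13. ERG12 has 4 probe sets, whose log2 fold changes with neocarzinostatin ran from 0.07 to 0.78 and with calicheamicin from -0.40 to 0.57, and the other 29 genes have 1 each. ARE1, an acyltransferase that esterifies sterols, was at 126, 145 and 166 in methanol and at 119, 104 and 137 with esperamicin A1, a log2 fold change of -0.28 (limma, adjusted p = 0.999) between overlapping groups. ARE1 measured 184, 119 and 164 with calicheamicin and 202, 124 and 104 with neocarzinostatin, and 139, 123 and 120.5 after mock irradiation and 161, 137 and 152 after γ-radiation. These values too overlapped with those of their controls.

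On the remaining arrays the genes named so far showed no group that stood apart from its control. ERG4 measured 389, 448 and 493 in methanol, and with calicheamicin, esperamicin A1 and neocarzinostatin in turn 526, 427 and 457, then 323, 346 and 503, then 469, 428 and 369.8. HMG2 measured 278, 200.3 and 154 in methanol, and in the same order 241, 155 and 240.9, then 202, 216 and 254, then 244, 299 and 239. In HMG2 methanol replicate 3 and calicheamicin replicate 2 were the low arrays. ERG13 measured 279, 283 and 249 with neocarzinostatin, 241, 191 and 291 after mock irradiation and 316, 247 and 292 after γ-radiation. ERG12 measured 63.2, 36.4 and 48.1 with calicheamicin, 50.1, 40.0 and 79.9 after mock irradiation and 59.1, 54.3 and 73.9 after γ-radiation.

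Enzymes and regulators known to control the pathway overlapped with methanol as well. ERG11, the lanosterol demethylase that azole drugs inhibit, measured 628, 1312 and 1151 in methanol, and with calicheamicin, esperamicin A1 and neocarzinostatin in turn 1335, 1054 and 1055, then 1059, 1021 and 892, then 1224, 1137 and 655. HMG1, the other HMG-CoA reductase gene, measured 449.5, 444 and 380 in methanol, and in the same order 482, 422 and 420.5, then 476, 421 and 440.3, then 457, 565 and 390.2. Here methanol replicate 1 was the lowest array for ERG11 and was not for HMG1. UPC2 measured 29.9, 14.0 and 12.8 in methanol, and in the same order 16.5, 14.4 and 11.95, then 17.7, 15.5 and 16.0, then 16.6, 14.5 and 11.7, with methanol replicate 1 above all the others.

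The enediynes were also compared with each other, in 3 pairs at the unequal concentrations given above. Each pair called 0 of the 30 genes and 0% of all genes. ERG12 was at 31.3, 27.6 and 25.3 with esperamicin A1, below all arrays of neocarzinostatin, a log2 difference of -0.99 (95% interval -1.79 to -0.18; limma, adjusted p = 0.626). Over its 4 probe sets this difference ran from -1.37 to 0.14, so 1 of them went the other way. ERG13 was at 189, 196 and 208 with esperamicin A1, below all arrays of calicheamicin. The log2 difference of calicheamicin from esperamicin A1 was 0.55 (95% interval 0.07 to 1.02; limma, adjusted p = 0.994). Neither difference passed. The actin difference was -2.34 to -1.53 on the esperamicin A1 arrays, -1.34 to -0.74 with calicheamicin and -0.95 to -0.83 with neocarzinostatin. ERG12 and ERG13 were also low on methanol replicate 1, the array with the lowest actin difference. Among the esperamicin A1 arrays, replicate 1 had the lowest actin difference, the lowest ERG13 and the highest ERG12. Whether RNA integrity has a part in how esperamicin A1 differed from the other enediynes was not tested. The calicheamicin arrays were all above those of esperamicin A1 for 4 of the 30 genes, ERG13, ERG12, ERG1 and ERG25, against 6.98% of all genes, and below for none, against 7.71%. Those of esperamicin A1 were all above neocarzinostatin for 1 gene, ERG7 (7.30% of all genes), and all below for 2, ERG13 and ERG12 (7.71%). Calicheamicin and neocarzinostatin were not separated for any of the 30, with 5.23% of all genes above and 6.63% below. The difference between the γ-radiation effect and the mean enediyne effect called 0 of the 30 sterol genes, beside 0.336% of all genes, and the smallest adjusted p among the 30 was 0.697 in limma.

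The comparison of the control groups, methanol against mock irradiation, asked whether the controls had the same levels of sterol transcripts. It called 3 of the 30 genes and 8.68% of all genes tested, 1 higher (3.09% of all genes) and 2 lower (5.59%), so the share among sterol genes was near that of all genes. When the 6 control arrays were fitted alone, 0 of the 30 and 89 of all genes were called (875 genes, 4 of them sterol genes, had an unadjusted p under 0.05). In the model of all arrays, 4 sterol genes and 23.1% of all genes had an unadjusted p under 0.05. Methanol was all above mock for 3 of the 30, ERG10, HMG1 and MVD1 (8.75% of all genes), and all below for 2, ECM22 and ARE2 (14.3%). Handling of the controls and their treatment cannot be told apart here.

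ERG5, the cytochrome P450 sterol desaturase near the end of the pathway, measured 63.6, 140 and 151 in methanol and 63.2, 45.3 and 70.4 after mock irradiation. Methanol replicate 1 lay among the mock values and the other methanol arrays far above them. The group means were 118 ± 47.6 and 59.7 ± 12.9 (SD, n = 3), and the log2 fold change was 0.91 (SE 0.26; limma, adjusted p = 0.043). Without methanol replicate 2, methanol replicate 3 or mock replicate 2, in turn, the call was lost. The local pooled error test did not call it either (adjusted p = 0.123). ERG5 measured 144, 127 and 133 with calicheamicin, 139, 108 and 98.9 with esperamicin A1 and 130.4, 127 and 118 with neocarzinostatin. It measured 76.1, 54.0 and 62.1 in γ-irradiated cells, below all of the enediyne arrays.

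ECM22 measured 31.3, 42.9 and 29.5 after mock irradiation, above all the methanol values given above. The means were 12.2 ± 6.09 in methanol and 34.6 ± 7.30 after mock irradiation (SD, n = 3), and the log2 fold change was -1.63 (SE 0.31; limma, adjusted p = 0.00681). In γ-irradiated cells it measured 32.8, 40.2 and 27.1. All 12 arrays of the methanol and enediyne groups were therefore below all 6 arrays of the irradiation groups, a separation found in 2.67% of all genes and, among the 30 sterol genes, in ECM22 alone. The opposite separation was found in 1.73% of all genes and in 0 of the 30. Its paralog UPC2 measured, beside the methanol values given above, 11.6, 11.8 and 20.1 after mock irradiation, with overlapping groups and no call. Both regulators were dim: by mean log2 intensity ECM22 stood at percentile 43.4 of all genes and UPC2 at 33.5. No detection call was used and their low values were not shown to be above background, so the sizes of their differences are uncertain.

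ARE2, the acyltransferase that makes most of the sterol ester in aerobic cells, measured 5.37, 6.68 and 6.01 in methanol and 9.38, 9.05 and 12.9 after mock irradiation. The groups did not overlap, and the log2 fold change was -0.78 (SE 0.23; limma, adjusted p = 0.0530). The call was lost without methanol replicate 1 or mock replicate 3, with the actin difference as a covariate (adjusted p = 0.184) and in the local pooled error test (adjusted p = 0.552). ARE2 was 1 of the 2 sterol genes in the dimmest 25% of all genes, the other being HES1, and no detection call was used. It measured 5.27, 9.67 and 11.3 in γ-irradiated cells, of which replicate 1 was below every methanol array. With calicheamicin it measured 7.45, 7.13 and 6.51, with esperamicin A1 4.54, 6.14 and 6.61, and with neocarzinostatin 6.83, 6.02 and 7.53. These overlapped with methanol. Among related genes, YEH1, a sterol ester hydrolase, was 1.48 log2 units higher in methanol (limma, adjusted p = 0.00681) and was the sole called gene of 5 in a list of other esterification, hydrolysis and acetylation genes. Of 16 genes of sterol transport and binding, NCR1 was called higher and KES1 and NPC2 lower. Over all genes 3.09% were called higher and 5.59% lower. In methanol KES1 ranged from 27.2 to 117 and NPC2 from 64.7 to 264. The calls in these lists were not examined without single arrays.

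**Figure D3:**
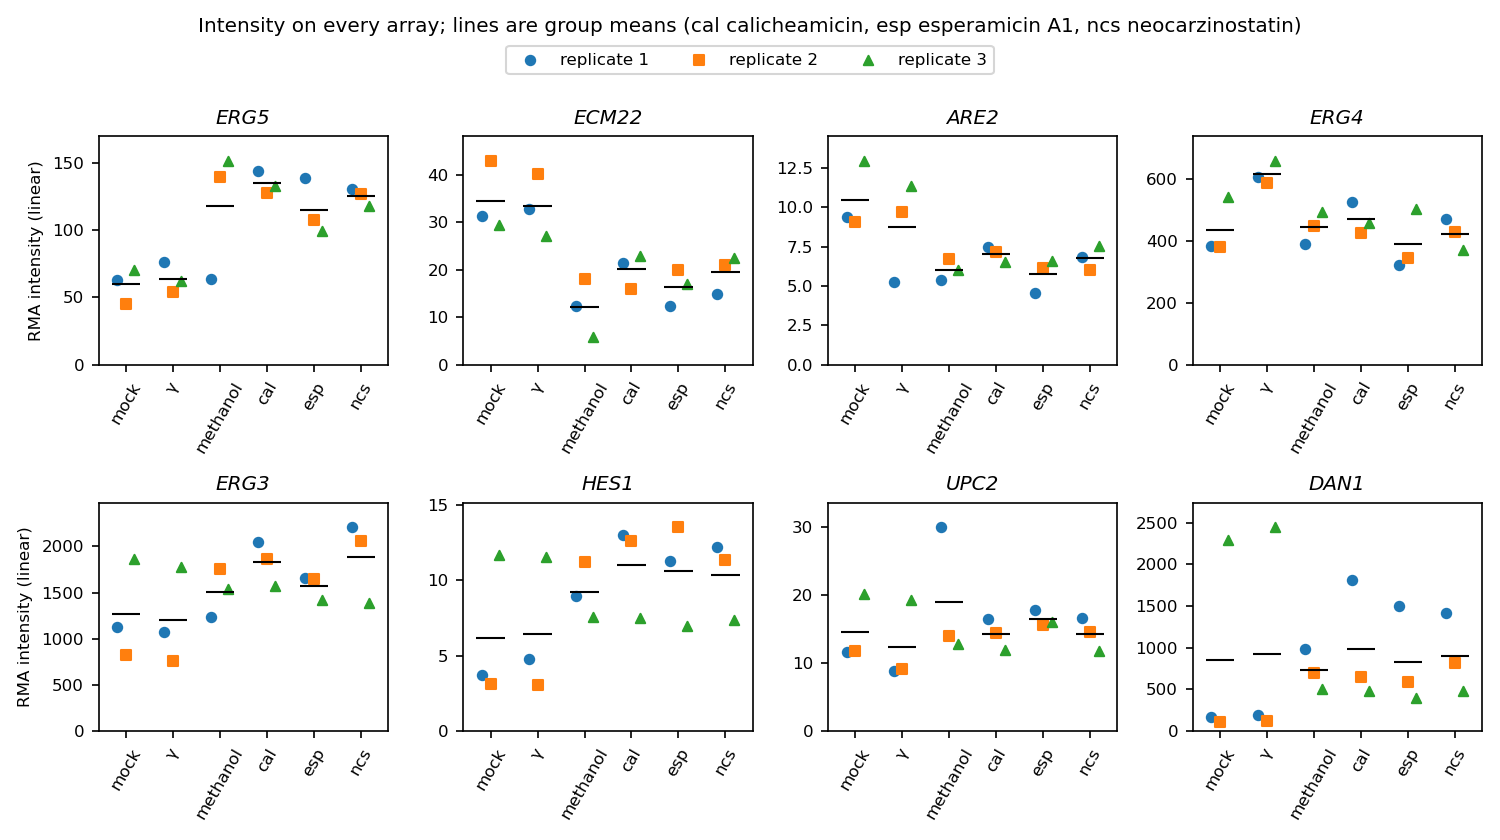
RMA intensity on a linear scale (vertical axes, from 0) on each array of 7 sterol genes and the cell wall gene DAN1, by group (horizontal axes). Marks are replicates 1, 2 and 3 and black lines are group means. ECM22 is above 27 on all mock and γ arrays and at or below 23.0 on all others, and replicate 3 stands above the other replicates for ERG3, HES1, UPC2 and DAN1 in mock and γ cultures.

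In the irradiation groups, cultures that carried the same replicate number shared a deviation in these genes. Over all genes, deviations from the group mean of γ-irradiated and mock-irradiated arrays of one number correlated at 0.65, 0.50 and 0.67 (a description across genes, which are not independent). Among methanol and enediyne arrays these correlations were lower, from -0.09 for esperamicin A1 and methanol replicate 3 to 0.42 for calicheamicin and esperamicin A1 replicate 1. The replicate number was therefore tested in the irradiation arrays with limma's F test at an adjusted p of 0.10, a test chosen after the values were seen. No fold threshold was set for this test, unlike the calls between groups, so its counts cannot be set against theirs. The F test called 20 of the 30 sterol genes, beside 28.3% of all genes. The fit of these 6 arrays left 2 residual degrees of freedom. An adjusted p printed beside a difference between replicate numbers is that of the F test over all numbers. The single differences were not tested. Leaving out 1 array at a time gave 13 to 17 sterol genes, the lowest without mock replicate 2. The share of all genes called in those fits was not counted. Replicate 3 exceeded replicate 2 in 26 of the 30, with a median log2 difference of 0.49 (range -0.56 to 1.90), whereas the median over all genes was -0.05 and 42.0% of them were higher. What differed between cultures of different number is not stated in the sources used here.

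In mock-irradiated and γ-irradiated cells alike, 19 of the 30 genes were highest in replicate 3, a pattern found in 15.1% of all genes, and 19 were lowest in replicate 2, found in 12.1%. Averaged over the 30 genes, the mock arrays deviated from their group mean by -0.06, -0.24 and 0.29 log2 units in replicates 1, 2 and 3, and the γ-irradiated arrays by -0.00, -0.24 and 0.24. Both groups therefore had the same order. On the same arrays the mean over all genes stayed between -0.05 and 0.05. The actin difference lay between -0.80 and -0.69 on all 6 arrays. The median within-group SD in these arrays was 0.34 log2 units for sterol genes and 0.22 for all genes, and with the replicate number in the model it was 0.11 and 0.14.

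**Figure D4:**
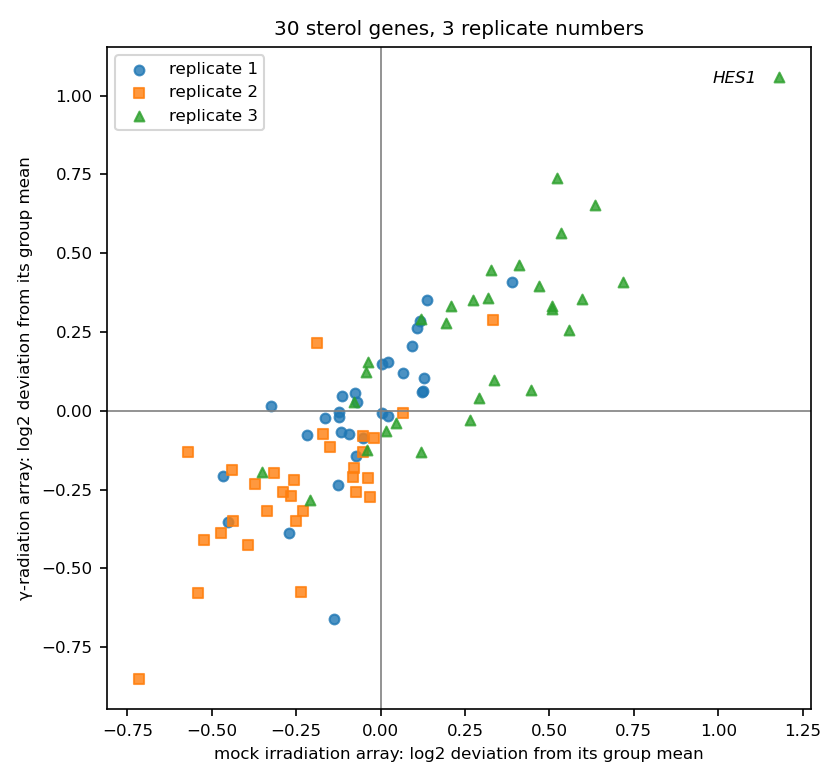
Log2 deviation from the group mean of each sterol gene in mock-irradiated arrays (horizontal axis) and in γ-irradiated arrays of the same number (vertical axis), for 30 genes and 3 replicate numbers. Replicate 3 lies mostly at the upper right, with HES1 farthest out, and replicate 2 mostly at the lower left.

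The genes from lanosterol to ergosterol made up 10 of the 20 calls. Of these 11 genes all except ERG4 were called, and the median difference of replicate 3 from replicate 2 was 0.70 log2 units. ERG3, the sterol desaturase that requires oxygen and cytochrome b5, measured 1126, 826 and 1866 in mock-irradiated and 1076, 757 and 1778 in γ-irradiated replicates 1 to 3. Replicate 3 was highest and replicate 2 lowest in both, and replicate 3 was 2.30-fold replicate 2 (log2 difference 1.20, SE 0.15; limma, adjusted p = 6.4e-04). ERG24 and ERG25, a sterol reductase and the sterol methyl oxidase, differed by 0.97 and 0.94 log2 units. ERG28, the scaffold of the demethylation complex, measured 173, 224 and 343 in mock-irradiated and 192, 212 and 363 in γ-irradiated cells, a difference of 0.70 from replicate 2 and 0.95 from replicate 1. ERG11 measured 929, 781 and 1058 in mock-irradiated and 766, 621 and 975 in γ-irradiated cells. It was highest in replicate 3 and lowest in replicate 2 of both groups, with a difference of 0.54 between these replicates.

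The mevalonate genes did not exceed the share of all genes. Of these 9 mevalonate genes 2 were called, beside 28.3% of all genes, HMG2 at 0.45 and ERG12 at 0.72 log2 units, and HMG1, which measured 372, 283 and 367 in mock-irradiated and 441, 297 and 316 in γ-irradiated cells, was not. Of the 3 genes from farnesyl diphosphate to lanosterol, ERG1 was higher in replicate 3 than in replicate 2 by 0.76 log2 units. ERG1 encodes the squalene epoxidase, the first oxygen-requiring enzyme. ERG7, the lanosterol synthase, was called in another order: it was highest in replicate 1, 0.67 log2 units above replicate 3. The electron donors NCP1, the cytochrome P450 reductase, and CYB5, cytochrome b5, both exceeded replicate 2 by 0.61 log2 units. The difference between roles was not tested.

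The regulators were highest in different replicates. UPC2 measured 8.82, 9.07 and 19.3 in γ-irradiated cells, and with the mock values given above it was highest in replicate 3 of both groups, by 0.93 log2 units over replicate 2 (limma, adjusted p = 0.00199). ECM22 was highest in replicate 2 of both groups, and replicate 3 was lower than replicate 2 with a log2 difference of -0.56 (limma, adjusted p = 0.0522). HES1, an oxysterol-binding protein homolog, measured 3.73, 3.14 and 11.7 in mock-irradiated and 4.79, 3.07 and 11.5 in γ-irradiated cells. Replicate 3 stood apart in both groups (log2 difference from replicate 2 of 1.90; limma, adjusted p = 2.27e-05). HES1 is in the dimmest 25% of genes and its replicate 1 and 2 values were not shown to be above background, so the size of that difference is uncertain. ARE2 was called as well, ARE1 was not.

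Genes of anaerobic sterol uptake and the anaerobic cell wall varied with the replicate number too. In a list of 12 such genes with Upc2 and Sut1 targets, 10 were measured and 8 were called in the irradiation arrays, beside 28.3% of all genes. In the methanol and enediyne arrays 4 of the 10 were called, beside 4.58% of all genes, in the other order: replicate 1 exceeded replicate 3 by 4.95-fold for DAN4, 3.07-fold for TIR4, 3.01-fold for DAN1 and 2.23-fold for AUS1. DAN1, a cell wall mannoprotein gene that is repressed in aerobic cells, measured 167, 111 and 2290 in mock-irradiated and 192, 124 and 2444 in γ-irradiated cells. Replicate 3 exceeded replicate 2 by 4.34 log2 units (20.2-fold; limma, adjusted p = 5.24e-09), and stood far above the others in both groups. TIR4, another mannoprotein gene, differed by 3.01 and AUS1, a sterol importer, by 1.63 log2 units. None of the 10 was called for an agent or between the controls. Their part in the sterol gene difference was not tested.

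In the 12 arrays of the methanol and enediyne groups the replicate number called 6 of the 30 sterol genes, beside 4.58% of all genes. They were ERG20, ERG26, ERG28, ERG6, ERG2 and HES1. Here replicate 3 was below replicate 2 in 24 of the 30, with a median log2 difference of -0.16, and 8 genes were highest in replicate 1 of every group, against 4.40% of all genes. In replicate 1, the number of the 30 genes above the group mean was 15 for methanol, 25 for neocarzinostatin, 24 for esperamicin A1 and 29 for calicheamicin, whereas 42.5% to 47.6% of all genes were. ERG2, the sterol isomerase, measured 2502, 1547 and 1429 with calicheamicin and 2322, 1729 and 1169 with neocarzinostatin. ERG26, a dehydrogenase of the demethylation complex, had the widest difference, replicate 3 being lower than replicate 1 with a log2 difference of -0.86 (limma, adjusted p = 0.0398). The count of 6 was 3 without calicheamicin replicate 1, 1 without calicheamicin replicate 3, 2 without neocarzinostatin replicate 1 and 5 without methanol replicate 1, and it was 3 with the actin difference as a covariate. The share of all genes called in these fits was not counted.

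When the replicate number was made a block, separately for arrays sharing a control, 0 of the 30 genes were called for γ-radiation, each enediyne, their mean, each pair and the difference of effects. Over all genes this block called 0 for calicheamicin, esperamicin A1, the enediyne mean and each pair. It called 3 of all genes, or 0.053%, for neocarzinostatin and 48, or 0.849%, for the difference of effects. The same block raised the count over all genes for γ-radiation from 51 to 129, or 2.28%, and ERG4 had an adjusted p of 0.185 in limma there.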

How the data were processed

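The authors quantified biotin-labelled cRNA on YG-S98 arrays and made the deposited intensities with RMA, which corrects background, applies quantile normalization and summarizes probes. Intensities are linear, and their log2 was used without further scaling. In R 4.3.3, limma 3.58.1 fitted 1 model of 18 arrays in 6 groups (12 residual degrees of freedom) with 10 contrasts. Control probe sets (60), those with several genes (328) and those with no gene (2443) were left out, and Absent/Present calls were not used here. Array values are relative to total RNA, so changes in total RNA per cell cannot be seen. P-values measure the spread between arrays labelled biological replicates, whose number limits the precision. The members and lists were chosen with earlier results of these data known. Values on every array are given for members called between groups, the 2 with the smallest p for each agent, and ERG11, HMG1, HMG2, UPC2, ARE1 and ARE2. All others were picked with their values known. Replicate numbers pair γ-irradiated with mock arrays by their correlations, not by a statement in the labels. The fit was tested on simulated data. Alternatives were other scaling, filters, thresholds, covariates, blocks, the local pooled error test and leaving out each array.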

Additional observations from a re-analysis of the deposited data

How the results depend on the processing

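For each agent, each pair of enediynes and the difference of effects, 0 of the 30 genes were called under every alternative run, including the local pooled error test and a replicate block. In the model of all arrays, 0.902% of all genes were called for γ-radiation and 0.336% for the difference of effects. The share was 0% for each enediyne and each pair. Methanol against mock irradiation gave 3, but 0 (and 89 of all genes) with those groups fitted alone, and 2 to 4 without single arrays. With the replicate number as a random block it gave 3, so the block changed no call among the 30. ERG5 ranged from 0.68 to 1.31 and ARE2 from -0.88 to -0.62 on the log2 scale without single arrays, and ECM22, from -1.99 to -1.18, was called each time. With an actin 5′ minus 3′ covariate ARE2 was not called (adjusted p = 0.184 in limma), and the local pooled error test called ECM22 and HES1. Sterol genes differing with replicate number were 20 in the irradiation arrays (13 without mock replicate 2, and 13 to 17 without single arrays) and 6 in the methanol and enediyne arrays (3 with the actin covariate, 1 to 6 without single arrays). The share of all genes called by replicate number under these alternatives was not counted. The median replicate difference kept its sign throughout. The cause of these changes was not tested. The fixed block could not be fitted for methanol against mock irradiation, since its numbers are nested in the sets of arrays, and a planned search of promoters for motifs was not run. Median SE of a log2 fold change was 0.25 for sterol genes and 0.20 for all genes.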

Other observations

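Other lipid and oxygen-related lists were measured beside the sterol genes. In methanol against mock irradiation 3.09% of all genes were called higher and 5.59% lower. Of 22 heme and oxygen regulated genes, 6 were called lower and 0 higher in methanol than in mock-irradiated cells, among them CYC7, an iso-cytochrome c gene, at -1.80, OLE1, the fatty acid desaturase, at -0.99, and HEM13, a heme synthesis oxidase, at -0.73 log2 units. Of 23 sphingolipid genes 1 was called, the ceramide synthase gene LAC1 at -1.10, and of 24 fatty acid and phospholipid genes 3 were lower, with the phosphatidylserine synthase gene CHO1 at -1.18. Of 13 genes of other isoprenoid branches, COQ2 was higher and BET2 lower. None of these genes was called for an agent. OLE1 ranged from 227 to 626 in methanol (SD 219, n = 3) and from 815 to 949 after mock irradiation. The calls in these lists were not examined without single arrays. With the replicate number in the irradiation arrays, 12 of the 22, 9 of the 23 and 10 of the 24 were called, beside 28.3% of all genes. The median log2 differences of replicate 3 from replicate 2 were 0.07, -0.18 and 0.12. Single genes moved in both directions, with ranges of -0.70 to 1.19, -0.65 to 0.35 and -0.81 to 0.73. Among the 22, ANB1 was at the upper end and CYC1 at the lower end.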
